A study of Mus musculus with 6 samples.

Results

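The 34 genes described here are transcripts of liver endothelium: 18 expressed by most endothelial cells, 12 typical of the sinusoidal endothelium, and 4 that encode secreted angiocrine factors. They were chosen by gene symbol from the deposited table of 22274 genes, and all 34 were present and passed the filter on low counts that left 13201 genes for testing. RNA was sequenced from livers of C57 mice infected with Ad-Dyrk1b, an adenovirus that overexpresses mouse Dyrk1b (3 libraries), or with Ad-EGFP, a control adenovirus (3 libraries). Both groups therefore carried an adenovirus, and the series set out to learn what the kinase Dyrk1b does in liver. The labels state no age, sex, dose or time after infection. Nor do they state that each library is a separate mouse, so the p-values describe only the spread between these libraries, which may be technical. Libraries are named D1 to D3 for Ad-Dyrk1b replicates 1 to 3 and E1 to E3 for Ad-EGFP replicates 1 to 3.

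Liver sinusoids are lined by fenestrated endothelial cells without a dense basement membrane. These cells clear waste molecules from blood through scavenger receptors such as the stabilins. Endothelial cells near the central vein secrete Wnt2, Wnt9b and the Wnt amplifier Rspo3, which maintain the pericentral programme of neighbouring hepatocytes. Endothelial Bmp2 and Bmp6 act on hepatocytes to set hepcidin production.

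Total counts per library ranged from 17326516 to 20024888. Dyrk1b stood at 62.2, 101 and 96.5 FPKM (reads scaled to gene length and library depth) in the Ad-Dyrk1b libraries, against 3.81, 4.97 and 4.16 FPKM in the Ad-EGFP libraries, so the target followed the labels. Viral and mouse Dyrk1b transcripts were not separated. The liver label was borne out by the hepatocyte markers, which summed to 64180 to 80550 CPM (counts scaled to library depth) in Ad-Dyrk1b and 81060 to 84400 CPM in Ad-EGFP livers. The 34 endothelial genes summed to 834, 603 and 821 CPM in Ad-Dyrk1b livers and to 500, 707 and 684 CPM in Ad-EGFP livers. In bulk tissue, fewer cells of a type and less RNA per cell cannot be told apart.

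Promoters are shown for 4 genes on which the account turns: Wnt2 and Fcgr2b, the genes that passed the test, Wnt9b, the partner of Wnt2, and Clec4g, a sinusoidal lectin gene whose promoter held 3 matches to the ETS motif. Each runs from 250 bases before to 50 bases after the annotated start, on the gene's own strand (RefSeq, GRCm38.p6, the build of the mm10 files). They lie at chr6:18030396-18030695, chr11:103749772-103750071, chr1:170976022-170976321 and chr8:3720602-3720901, all on the minus strand, in the order Wnt2, Wnt9b, Fcgr2b and Clec4g. Capitals mark AGGAAG or its reverse complement CTTCCT, the core bound by ETS factors such as Erg, and adjoining capitals in Clec4g are 2 overlapping matches.
Wnt2: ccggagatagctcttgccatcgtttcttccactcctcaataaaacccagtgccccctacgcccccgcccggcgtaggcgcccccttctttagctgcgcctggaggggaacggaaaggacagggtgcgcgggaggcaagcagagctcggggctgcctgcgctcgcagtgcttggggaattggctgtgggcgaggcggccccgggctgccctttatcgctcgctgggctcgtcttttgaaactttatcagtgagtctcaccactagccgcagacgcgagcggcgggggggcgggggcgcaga
Wnt9b: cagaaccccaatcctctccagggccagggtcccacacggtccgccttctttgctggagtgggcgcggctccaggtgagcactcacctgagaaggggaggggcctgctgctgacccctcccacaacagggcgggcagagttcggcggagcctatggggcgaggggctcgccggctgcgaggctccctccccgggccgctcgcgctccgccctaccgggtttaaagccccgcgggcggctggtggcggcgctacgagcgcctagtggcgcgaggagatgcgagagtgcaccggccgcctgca
Fcgr2b: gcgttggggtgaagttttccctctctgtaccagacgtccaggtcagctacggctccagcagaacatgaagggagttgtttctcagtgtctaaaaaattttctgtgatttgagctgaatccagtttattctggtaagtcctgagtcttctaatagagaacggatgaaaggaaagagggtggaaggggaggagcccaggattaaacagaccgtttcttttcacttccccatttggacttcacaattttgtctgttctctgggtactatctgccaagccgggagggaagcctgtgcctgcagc
Clec4g: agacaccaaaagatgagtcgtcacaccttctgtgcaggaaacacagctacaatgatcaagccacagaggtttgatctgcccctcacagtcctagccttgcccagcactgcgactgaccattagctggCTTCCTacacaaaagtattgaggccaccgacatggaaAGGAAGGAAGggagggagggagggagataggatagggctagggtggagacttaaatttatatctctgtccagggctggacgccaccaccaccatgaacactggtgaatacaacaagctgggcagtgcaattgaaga
The Wnt2, Wnt9b and Fcgr2b windows held no match to these letters. RefSeq windows were found for 18 of the 34 genes, 22 windows in all. Of these 22, 12 held the ETS letters (54.5%), against 35.4% of all 32851 windows of the same length. The GATA letters AGATAA stood in 2 of 22 (9.09%, against 11.2% of all windows), as did the SOX letters ACAATG (9.09%, against 12.6%) and the TCF letters CTTTGA (9.09%, against 16.0%). Both strands were searched, and a match is a description and not a binding site.

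Of the 34 genes, 2 were called higher in Ad-Dyrk1b livers and 0 lower by edgeR's quasi-likelihood test (adjusted p under 0.05 over all 13201 genes). Wnt2 rose by 1.33 ± 0.35 on the log2 scale and Fcgr2b, an inhibitory receptor for immunoglobulin complexes, by 0.39 ± 0.11 (SE). The share called higher was 5.88%, against 7.36% of all tested genes. The share of all tested genes called lower was 4.81%. At an unadjusted p under 0.05, 12 of the 34 were higher and 0 lower, or 35.3% and 0%, against 14.9% and 13.5% of all tested genes. Log2 fold changes were above 0 in 31 of the 34 (91.2%), against 49.4% of all tested genes. Their median was 0.35, while the median of all tested genes was -0.005. DESeq2 called 4 of the 34 higher (8.22% of all genes it tested), limma-voom called 2 (7.10%), and the authors' deposited table gave 4 an adjusted p under 0.05 (4.65% of its genes, higher). Both DESeq2 and the authors' deposited table added Lyve1 and Esam to Wnt2 and Fcgr2b.

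After each gene was centred on its mean over the 6 libraries, the 34 genes averaged 0.27, -0.05 and 0.31 log2 CPM in Ad-Dyrk1b livers, against -0.46, -0.01 and -0.07 in Ad-EGFP livers. The group means differed by 0.36, with an SD between libraries of 0.20 in Ad-Dyrk1b and 0.24 in Ad-EGFP livers (n = 3 each). The groups overlapped, since D2 lay below E2. E1 was the lowest library for 28 of the 34 genes (82.4%), against 19.9% of all tested genes. D1 or D3 was the highest for 17 and 12 genes, against 16.2% and 18.7% of all tested genes. Other lists were lowest in E1 as well, among them the markers of Kupffer cells (centred mean -0.59 in E1), T and NK cells (-0.53) and bile duct cells (-0.39). The endothelial activation genes (-0.39) and basement membrane genes (-0.34) were also lowest there, while hepatocyte markers were highest in E1 (0.14). Not every list was lowest in E1. The markers of neutrophils and monocytes stood at 0.31 there and were lowest in E2. Lymphatic endothelial markers stood at 0.09 in E1 and were lowest in E3, and stellate markers stood at -0.14 and were lowest in D2. The part of any of these lists in the endothelial values was not tested. The Kupffer markers averaged 0.28, 0.00 and 0.15 in Ad-Dyrk1b livers, against -0.59, -0.07 and 0.21 in Ad-EGFP livers. The value of E3 leans on Marco, with 3198 counts there and 304 to 780 counts in each other library (log2 fold change -1.07 ± 1.09). Without E1, 0 of the 34 were called (4.60% of all tested genes were then called higher), the median was 0.23, and 30 of 34 values were above 0, against 49.7% of all tested genes. Without D1 the count was also 0, and it was 1 without D3, E2 or E3. For 28 of the 34 genes, leaving out at least 1 library moved the log2 fold change by over 1.5 times or changed its sign.

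**Figure D1:**
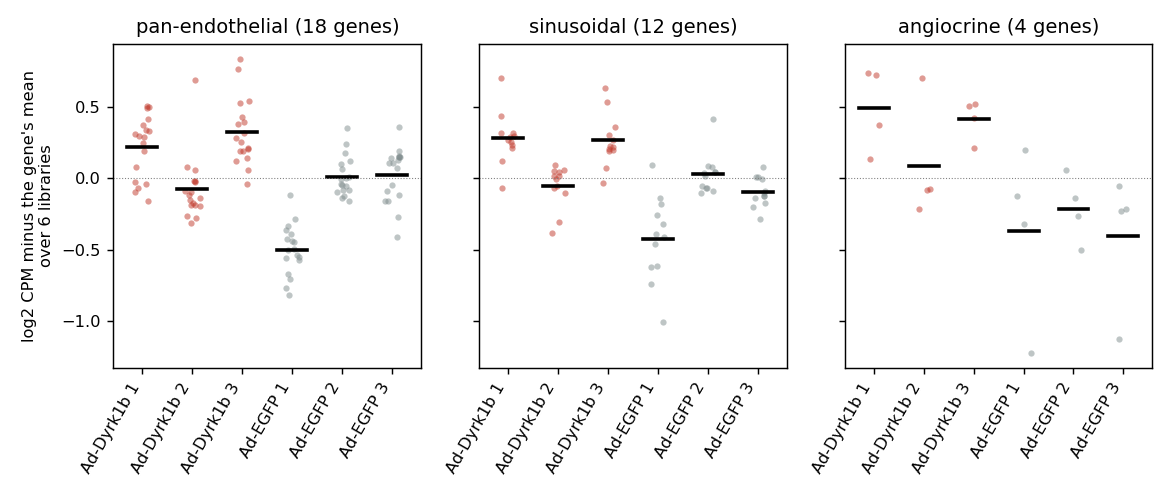
Level of each gene in each library, as log2 CPM minus the gene's mean over the 6 libraries. Each point is a gene and the bar is the mean of its group of genes. Ad-EGFP replicate 1 (E1) is lowest for the 18 pan-endothelial genes at -0.50 and for the 12 sinusoidal genes at -0.42, while the 4 angiocrine genes average below 0 in every Ad-EGFP library.

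The median log2 fold change was 0.35 for the pan-endothelial genes, 0.33 for the sinusoidal genes and 0.51 for the angiocrine genes, of which 0 of 18, 1 of 12 and 1 of 4 were called higher. Differences between the classes were not tested. The class means overlapped between groups for the pan-endothelial genes, with 0.22, -0.08 and 0.32 in Ad-Dyrk1b and -0.50, 0.01 and 0.03 in Ad-EGFP livers (centred log2 CPM). They also overlapped for the sinusoidal genes, with 0.28, -0.05 and 0.26 in Ad-Dyrk1b and -0.42, 0.03 and -0.10 in Ad-EGFP livers. They did not overlap for the angiocrine genes, with 0.49, 0.08 and 0.41 in Ad-Dyrk1b and -0.37, -0.21 and -0.41 in Ad-EGFP livers. Of these 4 genes, however, only Wnt2 had groups that did not overlap in log2 CPM. Bmp2, Rspo3 and Wnt9b each overlapped, so the gap in the mean is not a trait of the whole class. Without E1 the medians were 0.19, 0.23 and 0.67 in the same order of classes. With each library left out in turn they ranged from 0.19 to 0.47, from 0.23 to 0.42 and from 0.37 to 0.69, and the angiocrine median was lowest without E3. At a minimum count of 50, which left Bmp2 and Rspo3, it was 0.34.

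**Figure D2:**
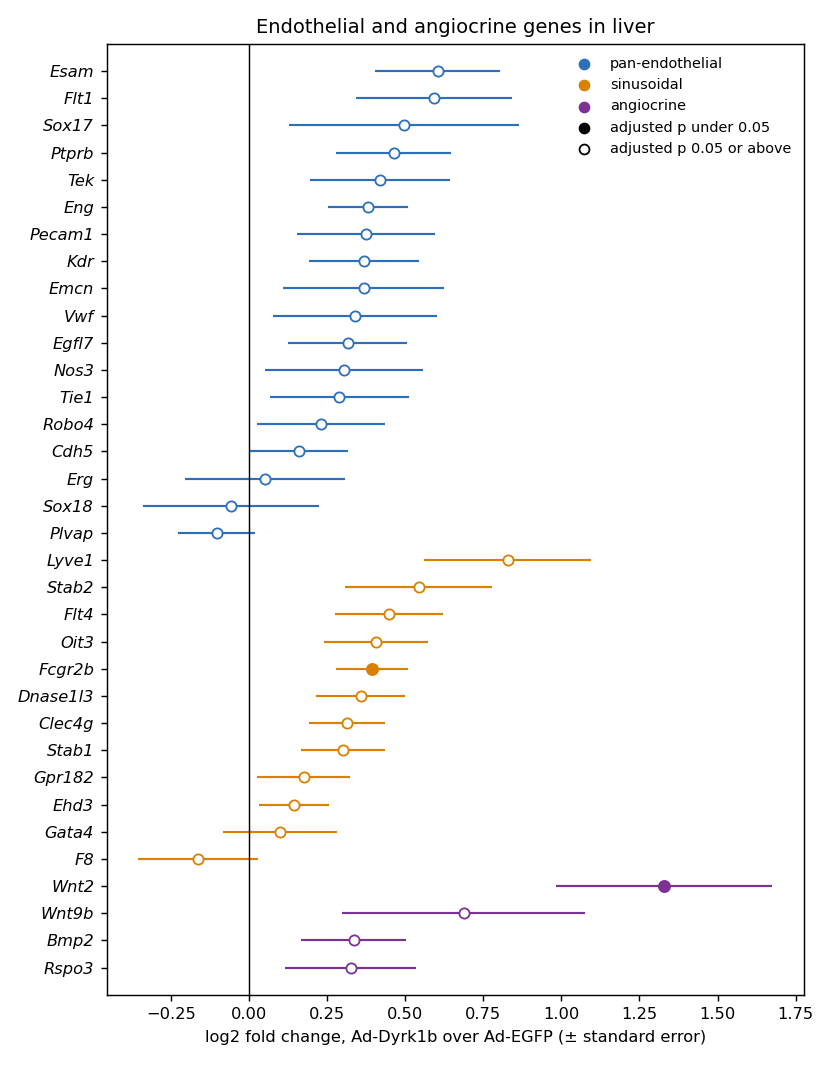
Log2 fold change of each gene, Ad-Dyrk1b over Ad-EGFP, with its standard error, grouped by class and sorted within it. Filled points passed an adjusted p under 0.05: Wnt2 at 1.33 and Fcgr2b at 0.39. Sox18, Plvap and F8 lie below 0.

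The angiocrine genes span Wnt ligands, a Wnt amplifier and a BMP ligand. Wnt2 (chromosome 6, 17988940 to 18030585, minus strand, mm10) encodes a Wnt ligand of pericentral endothelium. It had 48, 45 and 36 counts in Ad-Dyrk1b livers, against 10, 18 and 22 counts in Ad-EGFP livers. As FPKM these were 1.11, 1.0 and 0.890 in Ad-Dyrk1b livers, against 0.250, 0.460 and 0.560 in Ad-EGFP livers. All Ad-Dyrk1b libraries lay above all Ad-EGFP libraries. The fold change was 2.51 (edgeR adjusted p = 0.0265). The call was lost without D1 or D2 (edgeR adjusted p = 0.0765 and 0.0756) or without E1 or E2 (edgeR adjusted p = 0.0932 and 0.0586). The log2 fold change with 1 library left out ranged from 1.07 to 1.58.

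Wnt9b, the other pericentral Wnt ligand (chromosome 11, 103727364 to 103749821), stood at 0.600, 0.310 and 0.460 FPKM in Ad-Dyrk1b livers, against 0.410, 0.330 and 0.150 FPKM in Ad-EGFP livers. The groups overlapped, and the gene rests on 12 to 52 counts per library. Its log2 fold change was 0.69 ± 0.39 (edgeR adjusted p = 0.266). It was 0.37 without E3, which had 12 counts, and 1.01 without E1, the ends of its range with 1 library left out. Rspo3, a secreted R-spondin that amplifies Wnt signals, stood at 2.41, 1.73 and 3.39 FPKM in Ad-Dyrk1b livers, against 2.09, 1.87 and 2.15 FPKM in Ad-EGFP livers. Its groups overlapped, and the log2 fold change was 0.33 ± 0.21 (edgeR adjusted p = 0.337), and it was 0.12 without D3. Bmp2 stood at 4.30, 2.87 and 3.63 FPKM in Ad-Dyrk1b livers, against 2.62, 3.54 and 2.89 FPKM in Ad-EGFP livers. Its log2 fold change was 0.34 ± 0.17 (edgeR adjusted p = 0.214). On the per-length scale of FPKM, mean levels in Ad-Dyrk1b livers thus ordered Bmp2 (3.60), Rspo3 (2.51), Wnt2 (1.0) and Wnt9b (0.457). In Ad-EGFP livers they ordered Bmp2 (3.02), Rspo3 (2.04), Wnt2 (0.423) and Wnt9b (0.297), and single libraries of Wnt2 and Wnt9b overlapped there. Bmp2 and Rspo3 overlapped in Ad-Dyrk1b livers, and other neighbours in either order did not.

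**Figure D3:**
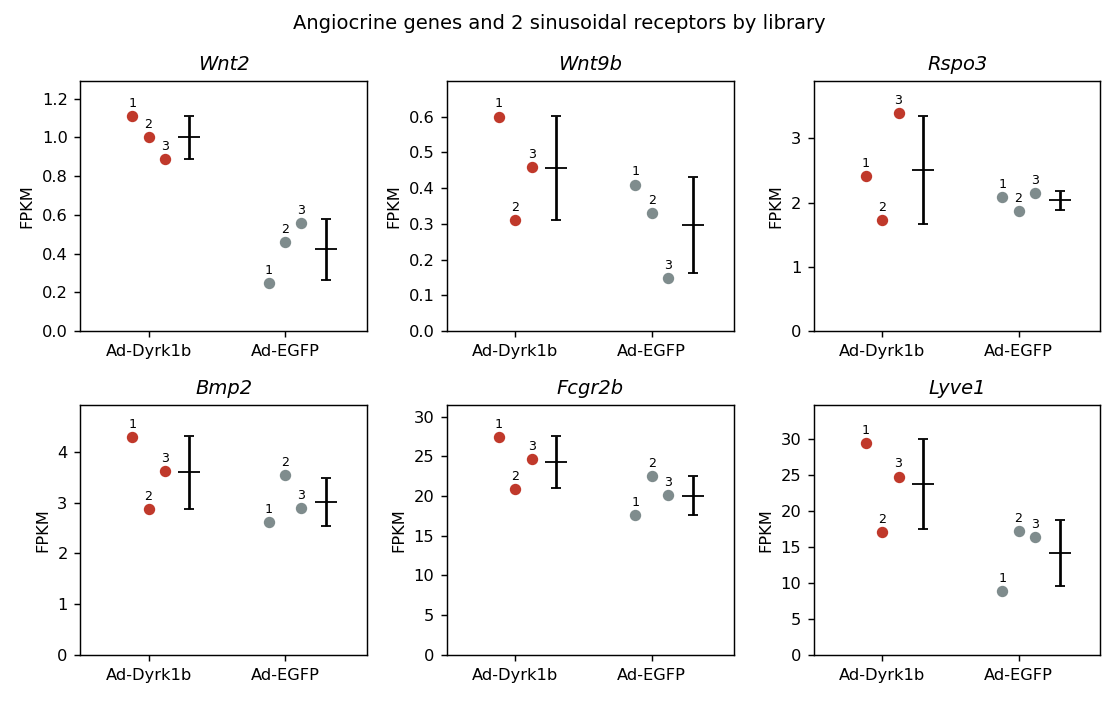
FPKM in each library for the 4 angiocrine genes and for the sinusoidal receptor genes Fcgr2b and Lyve1. Points are libraries numbered by replicate, and the bar beside them is the mean ± SD of 3 libraries. Wnt2 is the panel in which the FPKM values of the groups do not overlap.

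Scavenger and lectin receptors of the sinusoid comprised Stab1, Stab2, Lyve1, Clec4g and Fcgr2b. All 5 had log2 fold changes above 0, between 0.30 and 0.83, and 1 was called. Fcgr2b (chromosome 1, 170958617 to 170976547, minus strand) stood at 27.5, 20.9 and 24.6 FPKM in Ad-Dyrk1b livers, against 17.6, 22.5 and 20.1 FPKM in Ad-EGFP livers. On that scale the groups overlapped. On the log2 CPM scale with TMM factors, they did not, with 5.54, 5.28 and 5.46 in Ad-Dyrk1b and 4.91, 5.16 and 5.03 in Ad-EGFP livers (edgeR adjusted p = 0.0405). The call was lost without D1 or D3 (edgeR adjusted p = 0.129 and 0.0906) or E1 or E3 (edgeR adjusted p = 0.144 and 0.0957). A block on replicate number also ended it (edgeR adjusted p = 0.0520), as did scaling by library totals only (edgeR adjusted p = 0.124). In the 3 limma-trend fits on log2 FPKM it was not called (limma adjusted p = 0.215 to 0.289).

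Lyve1, a hyaluronan receptor of sinusoidal and lymphatic endothelium (chromosome 7, 110850607 to 110863239), had the largest sinusoidal value, a log2 fold change of 0.83 ± 0.27. It stood at 29.5, 17.1 and 24.8 FPKM in Ad-Dyrk1b livers, against 8.90, 17.3 and 16.4 FPKM in Ad-EGFP livers. The 17.1 FPKM of D2 lay below the 17.3 FPKM of E2. edgeR did not call it (adjusted p = 0.0952), whereas DESeq2 did (adjusted p = 0.00163). The stabilin Stab2, which takes up hyaluronan and other waste, had 0.54 ± 0.24 (edgeR adjusted p = 0.177) and Stab1 had 0.30 ± 0.14 (edgeR adjusted p = 0.166). Clec4g stood at 21.1, 16.4 and 19.2 FPKM in Ad-Dyrk1b livers, against 14.5, 17.3 and 16.3 FPKM in Ad-EGFP livers (log2 fold change 0.31 ± 0.12, edgeR adjusted p = 0.113).

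The other sinusoidal genes were not called. Flt4, the VEGF-C receptor VEGFR3, had a log2 fold change of 0.45 ± 0.17 and Oit3, a secreted sinusoidal protein, 0.41 ± 0.17. Dnase1l3, a secreted DNase, had 0.36 ± 0.14, the atypical chemokine receptor gene Gpr182 had 0.17 ± 0.15 and the endocytic adaptor gene Ehd3 had 0.15 ± 0.11. Their edgeR adjusted p-values lay between 0.113 and 0.472. F8, coagulation factor VIII, stood at 1.46, 0.990 and 1.21 FPKM in Ad-Dyrk1b livers, against 1.13, 1.83 and 1.37 FPKM in Ad-EGFP livers, and its log2 fold change of -0.16 ± 0.19 was the lowest of the 34 (edgeR adjusted p = 0.619). Without E2 that value was 0.03. Gata4, a transcription factor of sinusoidal identity that other liver cells also express, had 0.10 ± 0.18 (edgeR adjusted p = 0.758).

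Apart from Plvap (log2 fold change -0.10), described below, pan-endothelial receptors and surface proteins had values above 0, and none was called. Kdr and Flt1, the VEGF receptors 2 and 1, had log2 fold changes of 0.37 ± 0.18 and 0.59 ± 0.25. Flt1 stood at 1.19, 1.23 and 2.17 FPKM in Ad-Dyrk1b livers, against 0.850, 1.32 and 1.07 FPKM in Ad-EGFP livers, so its mean rested most on D3. The angiopoietin receptor genes Tek and Tie1 had 0.42 ± 0.22 and 0.29 ± 0.22, and without E1 0.22 and 0.05. Ptprb, the phosphatase that restrains Tek, had 0.46 ± 0.18. Ptprb was called without D2 (log2 fold change 0.64, edgeR adjusted p = 0.0228; range 0.0228 to 0.325 over the 6 libraries left out in turn). Eng, a co-receptor for BMP9, had 0.38 ± 0.13 (edgeR adjusted p = 0.0717) and the guidance receptor gene Robo4 had 0.23 ± 0.20.

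Among junction and surface genes, Esam, a tight-junction adhesion molecule, had the largest value, 0.60 ± 0.20 (edgeR adjusted p = 0.0724; DESeq2 adjusted p = 0.0348). It stood at 12.8, 8.85 and 11.1 FPKM in Ad-Dyrk1b livers, against 5.02, 8.70 and 8.88 FPKM in Ad-EGFP livers. D2 lay between E2 and E3. Pecam1 (CD31) stood at 10.3, 7.13 and 10.8 FPKM in Ad-Dyrk1b livers, against 5.11, 8.45 and 9.59 FPKM in Ad-EGFP livers, with a log2 fold change of 0.38 ± 0.22 and 0.16 without E1. Cdh5, VE-cadherin of adherens junctions, had 0.16 ± 0.16. The sialomucin gene Emcn had 0.37 ± 0.26 and the secreted angiogenic factor gene Egfl7 had 0.32 ± 0.19.

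The endothelial transcription factor genes had the lowest median by role, 0.08 over Erg, Sox17, Sox18 and Gata4. Erg had a log2 fold change of 0.05 ± 0.26 and Sox18 of -0.06 ± 0.28, and both changed sign when some libraries were left out. Sox17 had 0.50 ± 0.37 on 16 to 38 counts per library. Plvap, the diaphragm protein of fenestrae and caveolae, was the most abundant of the 34 per length. It stood at 30.5, 24.1 and 32.8 FPKM in Ad-Dyrk1b livers, against 28.6, 36.4 and 34.5 FPKM in Ad-EGFP livers (log2 fold change -0.10 ± 0.12, edgeR adjusted p = 0.620). Nos3, the endothelial nitric oxide synthase, had 0.30 ± 0.25. Vwf, von Willebrand factor, had 0.34 ± 0.26, and -0.04 without D3.

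In FPKM, groups did not overlap for 1 of the 34 genes, Wnt2, which was higher (2.94%, against 10.9% of all tested genes higher and 21.9% lower). In log2 CPM they did not overlap for 6, all higher: Wnt2, Lyve1, Fcgr2b, Clec4g, Esam and Eng (17.6%, against 16.8% of all tested genes higher and 16.7% lower). The counts of 5 genes (Eng, Stab1, Gpr182, Egfl7 and Nos3) are uncertain, because their exons overlap a neighbouring protein-coding gene and no strand setting is stated.

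Each gene was also set against the mean of the pan-endothelial genes in the same library, leaving itself out. On this scale 21 of 34 differences between group means were above 0 (61.8%, against 20.0% of all tested genes), with a median of 0.03. Groups did not overlap for 3 genes that lay higher and 2 that lay lower (8.82% and 5.88%), against 3.40% and 23.7% of all tested genes. The shares of the 34 and of all tested genes are not comparable on this scale. The 18 pan-endothelial genes are among the 34, and their mean itself differed by 0.31 between the groups. Subtracting it lowers the differences of all tested genes, so the shares show nothing particular to the 34. Wnt2 stood at 0.51, 0.78 and 0.18 in Ad-Dyrk1b livers, against -0.72, -0.51 and -0.24 in Ad-EGFP livers, a difference of 0.98 log2 units with no overlap. Lyve1 stood at 0.48, 0.12 and 0.21 in Ad-Dyrk1b livers, against -0.50, -0.12 and -0.20 in Ad-EGFP livers, and Esam also lay higher without overlap (difference 0.34). Plvap and F8 lay lower without overlap, with differences of -0.44 and -0.46. Fcgr2b overlapped on this scale (difference 0.08). These are descriptions, and with 3 against 3 libraries no test was run on them.

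**Figure D4:**
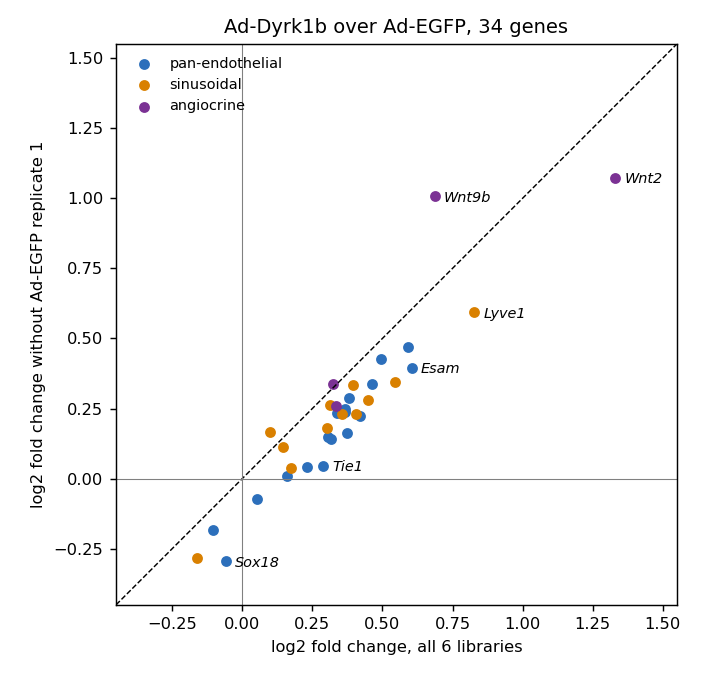
Log2 fold change of each of the 34 genes with all 6 libraries (horizontal) and without Ad-EGFP replicate 1, E1 (vertical). The dashed line marks equal values. Most points lie below it. Wnt2 moves to 1.07 and Lyve1 to 0.59, and Wnt9b lies above the line at 1.01.

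Further genes of these pathways came from lists of known pathway genes. All of these lists were drawn up with earlier results of these data known, so their counts are not independent evidence. For scale, 7.36% of all tested genes were called higher and 4.81% lower. Of 20 other endothelial genes 4 were called higher and 0 lower. Klf4, a flow-responsive transcription factor, rose by 1.34 ± 0.25 (edgeR adjusted p = 0.00487) and Cav1, caveolin, by 1.21 ± 0.28. Cd34 rose by 0.80 ± 0.22 and the flow-responsive factor gene Klf2 by 0.54 ± 0.14. The call for Klf4 held without any 1 library. That for Cav1 was lost without D2 or E3 (edgeR adjusted p = 0.0636 and 0.0535). That for Cd34 held only without D3 or E2, and that for Klf2 only without D2 (highest edgeR adjusted p = 0.121 and 0.106). The count was 1 without E3, and 2 without D1 or D2 or E1. Of 14 other sinusoidal genes 2 were called higher and 0 lower, the BMP ligand gene Bmp6 (0.82 ± 0.22) and the tetraspanin gene Tspan7 (0.43 ± 0.13). The call for Bmp6 was lost without D3 (edgeR adjusted p = 0.111) or any 1 Ad-EGFP library (edgeR adjusted p = 0.0629, 0.0846 and 0.0694). Leaving out any 1 library ended that for Tspan7 (edgeR adjusted p = 0.0542 to 0.140). The count was 0 without D3, E1 or E3, and 1 without D1 or E2.

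Among VEGF and angiopoietin ligands and their co-receptors, 2 of 9 tested genes were called higher and 0 lower, and both calls held without any 1 library. Nrp1, a co-receptor for VEGF and semaphorins, stood at 10.9, 11.5 and 11.4 FPKM in Ad-Dyrk1b livers, against 3.86, 5.18 and 3.67 FPKM in Ad-EGFP livers. Its log2 fold change was 1.50 ± 0.14 (edgeR adjusted p = 3.76e-05). Nrp2, a co-receptor of VEGF-C, stood at 2.80, 2.76 and 3.11 FPKM in Ad-Dyrk1b livers, against 1.46, 1.57 and 1.71 FPKM in Ad-EGFP livers (log2 fold change 0.97 ± 0.14, edgeR adjusted p = 0.000958). Other cell types also express both neuropilins. The ligand genes Vegfa, Vegfb, Vegfc and Angpt2 had -0.09 ± 0.21, 0.41 ± 0.15, 0.30 ± 0.25 and 0.55 ± 0.35 and were not called.

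Of 7 tested genes of central vein endothelium 1 was called higher and 0 lower, Ptgs1, a cyclooxygenase (0.59 ± 0.14, edgeR adjusted p = 0.0175). Leaving out D1, E1 or E2 ended the call (edgeR adjusted p = 0.0651, 0.0666 and 0.0521). Without D1 or E1 the list had 0 calls, and without E3 it had 2. Kit and Thbd (thrombomodulin) had 0.60 ± 0.20 and 0.59 ± 0.20 (edgeR adjusted p = 0.0743 and 0.0698). Of 12 tested genes of Notch signalling and periportal endothelium 1 was called higher, the scavenger receptor gene Msr1 (0.67 ± 0.12, edgeR adjusted p = 0.00333), which macrophages also express. The list had 2 calls without D2. Of 11 tested endothelial activation genes, 11 basement membrane genes and 9 coagulation genes 0 each were called by edgeR, by DESeq2 and by limma-voom. At an unadjusted p under 0.05, 1 activation gene was lower, 0 basement membrane genes passed and 1 coagulation gene was higher. Without E2, 1 activation gene and 1 coagulation gene were called higher.

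Of 17 tested hepatocyte genes listed as responding to Wnt, 9 were called higher and 0 lower. Whether Wnt2 had a part in their values was not tested. The list was drawn up with earlier results of these data known, so the count is not independent evidence. Examples whose calls held without any 1 library are the ornithine aminotransferase gene Oat (1.39 ± 0.16), the glutamate transporter gene Slc1a2 (1.13 ± 0.15), the ethanol-inducible P450 gene Cyp2e1 (1.04 ± 0.16) and the glutamine synthetase gene Glul (0.73 ± 0.11). Lhpp, a phosphatase, and Rgn, regucalcin, rose by 0.74 ± 0.13 and 0.78 ± 0.16. The call for Lgr5 (1.07 ± 0.27) held only without D2 or E2. Axin2, Nkd1, Rnf43, Notum, Tbx3 and Cyp1a2 had values above 0 but were not called (edgeR adjusted p = 0.0894 to 0.249). Znrf3 and Tcf7 were not called either, at 0.05 ± 0.22 and -0.04 ± 0.28. Exons of Glul overlap those of Teddm2. The mean centred level of the 17 genes was 0.35, 0.24 and 0.49 log2 CPM in Ad-Dyrk1b livers and -0.30, -0.38 and -0.40 in Ad-EGFP livers. The groups did not overlap. With 1 library left out, 6 to 10 were called, with 6 without E3. Of 18 tested genes of Wnt secretion and reception 4 were called higher and 0 lower, and 4 were lower at an unadjusted p under 0.05. Those lower were Porcn (-1.145 ± 0.42), Fzd6 (-0.595 ± 0.186), Lrp6 (-0.273 ± 0.123) and Ctnnb1 (-0.245 ± 0.105), with edgeR adjusted p = 0.0550 to 0.165. The frizzled receptor genes Fzd4 and Fzd7 rose by 0.74 ± 0.13 and 0.71 ± 0.13, and the co-receptor gene Lrp5 by 0.57 ± 0.12, and these calls held without any 1 library. The ligand gene Wnt4 rose by 1.07 ± 0.27, a call that leaving out any 1 library ended (edgeR adjusted p = 0.0509 to 0.0703).

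Among 17 BMP receptor and response genes 1 was called higher and 0 lower, the transcription factor gene Atoh8 (0.84 ± 0.21, edgeR adjusted p = 0.0229). At an unadjusted p under 0.05, 1 gene was lower, Hjv (-0.38 ± 0.13, edgeR adjusted p = 0.0705). The list had 0 calls without D3, E1 or E2, and Atoh8 then had an edgeR adjusted p of 0.0832, 0.0759 and 0.0712. Hamp, hepcidin, had a log2 fold change of -0.50 ± 0.73 and Id1, a direct BMP target, had -0.03 ± 0.31 (edgeR adjusted p = 0.716 and 0.964).

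**Figure D5:**
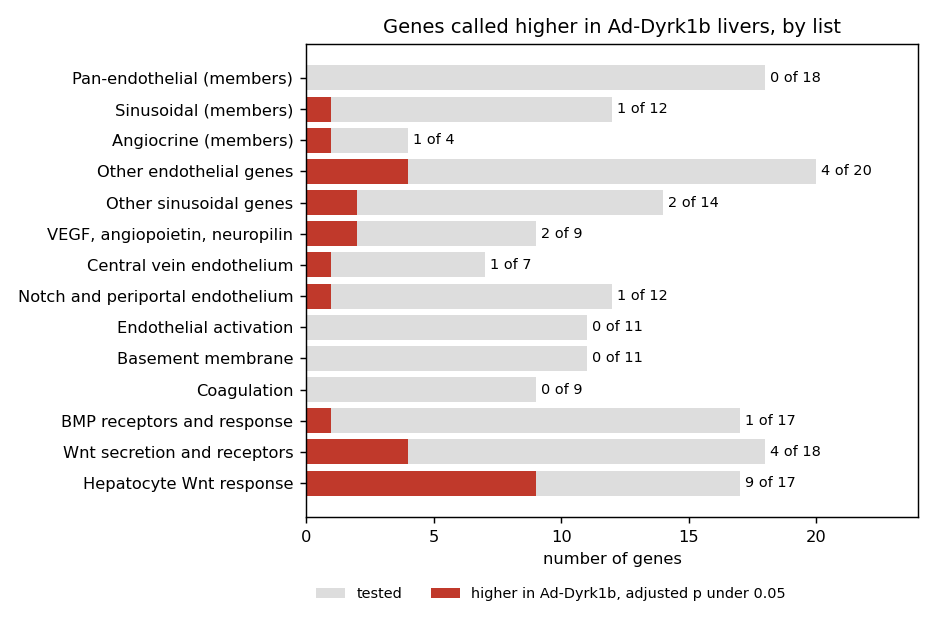
Number of tested genes (grey) and of genes called higher in Ad-Dyrk1b livers (red, edgeR adjusted p under 0.05) in each list. No list had a gene called lower. The hepatocyte Wnt response has 9 of 17 and the pan-endothelial genes 0 of 18.

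Markers of other liver cells were followed in the same libraries, and their sums include listed genes too low to test. Of 9 tested Kupffer cell markers 0 were called by edgeR and limma-voom, 1 by DESeq2, and 3 were higher at an unadjusted p under 0.05. Without D3 or E3, 1 Kupffer marker was called higher. Their summed level ranged from 1085 to 1453 CPM in Ad-Dyrk1b and from 707 to 1331 CPM in Ad-EGFP livers. The 1331 CPM is that of E3 and includes its high Marco count. Hepatocyte markers ran the other way, with -0.18, -0.05 and -0.003 in Ad-Dyrk1b and 0.14, -0.001 and 0.09 in Ad-EGFP livers, and 0 of 7 were called by edgeR, DESeq2 or limma-voom (1 lower at an unadjusted p under 0.05). T and NK markers had 2 of 8 called higher, the granzyme genes Gzmb and Gzma, of which Gzma was lost without D1 or any 1 Ad-EGFP library (edgeR adjusted p = 0.142, 0.128, 0.0566 and 0.128). They summed to 38.9 to 62.1 CPM in Ad-Dyrk1b and 26.0 to 35.5 CPM in Ad-EGFP livers. Bile duct markers had 1 of 6 called higher, Spp1, and summed to 318 to 434 CPM in Ad-Dyrk1b and 201 to 248 CPM in Ad-EGFP livers. That sum comes mostly from Spp1, with 3359 to 7889 counts per library, while no other bile duct marker exceeded 176 counts. Krt19, Krt7, Sox9 and Cftr had log2 fold changes of 0.32, 0.41, 0.67 and 0.55 and Epcam had -0.14, and none of these was called. Stellate markers had 0 of 10 called by edgeR and limma-voom and 1 by DESeq2, with 1 higher at an unadjusted p under 0.05 and 1 called higher without D2. They summed to 271 to 451 CPM in Ad-Dyrk1b and 308 to 379 CPM in Ad-EGFP livers. Lymphatic endothelial markers had 1 of 5 called higher, Pdpn (podoplanin), at 0.580, 0.490 and 1.02 FPKM in Ad-Dyrk1b livers, against 0.0600, 0.170 and 0.00 FPKM in Ad-EGFP livers. Pdpn rested on 20, 18 and 26 counts in Ad-Dyrk1b livers, against 2, 5 and 0 in Ad-EGFP livers. At an unadjusted p under 0.05, 1 marker was lower, Prox1 (log2 fold change -0.32 ± 0.14). Reln, Ccl21a and Mmrn1 had -0.28 ± 0.29, -0.02 ± 0.57 and 1.10 ± 0.59 and were not called. The lymphatic sum, 133 to 151 CPM in Ad-Dyrk1b and 155 to 215 CPM in Ad-EGFP livers, comes mostly from Prox1, which hepatocytes also express. Erythroid markers summed to 886, 1044 and 3694 CPM in Ad-Dyrk1b livers, against 528, 716 and 875 CPM in Ad-EGFP livers, so D3 stood apart. Their median log2 fold change was 1.51, and 0.50 without D3. Of 6 erythroid, 2 B cell and 3 platelet markers tested 0 were called by edgeR, DESeq2 or limma-voom, and 0 passed an unadjusted p under 0.05. Of 6 neutrophil and monocyte markers 1 was called higher, Ly6c2, and leaving out any 1 library ended its call (edgeR adjusted p = 0.0716 to 0.140). They summed to 24.8 to 68.7 CPM in Ad-Dyrk1b and 20.2 to 51.9 CPM in Ad-EGFP livers. No defining marker of these types was at 0 counts in all 6 libraries. The part of these cells in the endothelial values was not tested.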

How the data were processed

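Messenger RNA was sequenced from 6 liver samples of C57 mice, 3 given Ad-Dyrk1b and 3 given Ad-EGFP, and each was grouped by its title. The authors deposited whole-number counts per gene and library, with no normalization, and FPKM values, per the file headers. The deposited table also holds the authors' mean FPKM per group, log2 ratio, p-value and adjusted p-value. Per the submitters' processing notes the build was mm10 and DESeq2 was used; aligner, counting tool and strand setting: not given in the sources used here.

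Counts were fitted with edgeR 4.0.16 (R 4.3.3): filterByExpr (minimum count 10, minimum total count 15), TMM factors, robust quasi-likelihood F-test, two-sided, Benjamini-Hochberg over 13201 genes. Standard errors are the absolute log2 fold change over the square root of F. Log2 CPM uses a prior count of 2. The fit was tested on simulated data. Of the table's identifiers 22219 were found in GENCODE M21 (mm10), which gave coordinates. Alternatives were DESeq2 1.42.0, limma 3.58.1 (voom on counts; trend on log2 FPKM), other scalings and filters, a replicate block, and leaving out each library.

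The 34 genes were named by symbol, and list genes by smallest p (up to 6 called per list). Outside that rule, some uncalled genes were named, as was Lgr5, although the called genes Gulo and Lect2 of its list had smaller edgeR p-values. Members and lists were chosen with earlier results of these data known. The counts of a library allow a floor of 3 counts at 0.150 to 0.173 CPM (counting error only).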

Additional observations from a re-analysis of the deposited data

How the results depend on the processing

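Of the 34 genes, 2 were called higher by edgeR, and the count was 1 with library totals only, with a minimum count of 50, with limma-trend on log2(FPKM + 1) for genes with a mean of 0.5 FPKM or more, and with the replicate block. Fcgr2b was the gene lost with library totals, the filtered limma-trend fit and the block, and Wnt2 was not tested at the minimum count of 50. The count was 0 with limma-trend on log2(FPKM + 1) or log2(FPKM + 0.1) on all genes and 4 with DESeq2, and ran from 0 to 2 with 1 library left out. The count of lower calls was 0 under every alternative run. Over all genes, 1607 were called, 760 and 874 with limma-trend on log2(FPKM + 1) and log2(FPKM + 0.1), and 909 to 1241 with 1 library left out. Higher calls made up 60.5% of all calls, but 39.8% with library totals only, 48.2% and 47.7% with limma-trend at the larger and smaller pseudocount, and 42.3% with its filter.

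The median of the angiocrine genes was 0.19 with limma-trend on log2(FPKM + 1), with or without the filter on the mean. It was 0.38 with log2(FPKM + 0.1), against 0.51 in the main fit. Wnt9b, with group means of 0.457 and 0.297 FPKM, fell below that filter. A pseudocount lowers the fold change of genes near 1 FPKM, and the FPKM fits also use no TMM factors. The share of each in the lower medians was not tested. A minimum count of 50 removed 3 of the 34 genes. Some values changed sign: Erg had -0.034 with library totals only, and with 1 library left out the ranges were -0.104 to 0.273 for Erg, -0.295 to 0.116 for Sox18, -0.032 to 0.283 for Gata4 and -0.284 to 0.026 for F8. Vwf, at 0.34 with all libraries, had -0.041 without Ad-Dyrk1b replicate 3 and up to 0.535 otherwise.

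Replicate numbers are shared by the groups, and the deviations of same-numbered libraries correlated at 0.0245, 0.172 and 0.108. The labels do not say whether same-numbered libraries form pairs, and correlations this weak cannot decide it. With the replicate block 1 of the 34 genes was called and 1883 of all genes, and Ad-Dyrk1b replicates 2 and 3 but not 1 correlated best with their own number. Genes such as Wnt2, Wnt9b and Sox17, with 10 to 52 counts per library, are limited by depth.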
